A study of Chlorocebus sabaeus with 3 samples.

Results

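Genes that mark the endothelium of blood and lymphatic vessels were read in the cornea, the limbus, and the conjunctiva of vervet monkeys, with a single array for each tissue and 3 arrays in all. The 34 genes were chosen by name as known endothelial genes and were divided into 28 blood and general vessel genes and 6 lymphatic genes. All 34 were among the 19775 genes that could be named from probe sets with a single gene symbol. They had 71 probe sets, and the brightest one, by its mean log2 value over the 3 tissues, stood for each gene. According to the study, all tissues came from the same eye of the sabaeus subspecies, namely a trephined button of the cornea, a rim of the limbus, and the conjunctiva with the underlying Tenon tissue. Both the corneal and the limbal sample held the epithelium with the anterior part of the stroma. Since an age range is given for the animals, it is not clear from the sources used here whether an array held RNA of 1 animal or of several. The labels give no treatment or genotype, and tissue is the only difference between the arrays that they name. The probes were designed on human sequence, so the level of one probe set is not compared with that of another.

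The normal cornea has no blood or lymphatic vessels. It is nourished in part from the vessels of the limbus, which form loops at its margin, while the conjunctiva is a vascular mucosa with both blood and lymphatic vessels. Endothelial cells line all of these vessels, hold together through cadherin and claudin junctions, and capture leukocytes through selectins. Lymphatic endothelium is set apart by the transcription factor PROX1, the receptor FLT4 (VEGFR3), the hyaluronan receptor LYVE1, podoplanin (PDPN), and the chemokine CCL21.

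The tissue markers were in place. All 4 corneal markers, among them keratin 12 (KRT12) and keratocan (KERA), were highest in the cornea, and all 4 mucosal markers were lowest there. Of the mucosal markers, MUC5AC and KRT19 were highest in the conjunctiva and KRT13 and KRT4 in the limbus. The median intensity of an array lay between 48.8 and 50.7. The 3′/5′ ratio of the GAPDH control probe sets, which grows as amplified RNA becomes shorter, was 4.58 in cornea, 3.12 in limbus, and 3.83 in conjunctiva. It was thus highest in the cornea, where most vessel genes were lowest, and its part in the differences was not tested. No array was replicated. No difference could be set against a replicate error, no test was possible, and each comparison below describes these 3 arrays.

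Most vessel genes were lowest in the cornea. Of the 34 genes, 29 had their lowest value there, compared with 33.2% of all genes. The conjunctiva was at least 2-fold above the cornea for 17 of the 34 genes, compared with 5.68% of all genes. The limbus was at least 2-fold above the cornea for 13 of 34, compared with 4.06% of all genes. In 12 genes the cornea was at least 2-fold below both other tissues (2.93% of all genes). These were PECAM1, VWF, TIE1, EMCN, CDH5, MMRN2, CCL21, SELP, S1PR1, LMO2, ERG, and SELE. In the opposite direction, 0 of the 34 had a corneal value 2-fold above the conjunctiva (5.31% of all genes) or the limbus (2.51%), and 0 had one 2-fold above both (1.89%). The median log2 difference between the conjunctiva and the cornea was 0.99 over the 34 genes and -0.01 over all genes. That between the limbus and the cornea was 0.68 over the 34 genes and -0.05 over all genes. In whole tissue, fewer endothelial cells and less RNA per endothelial cell cannot be told apart.

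**Figure D1:**
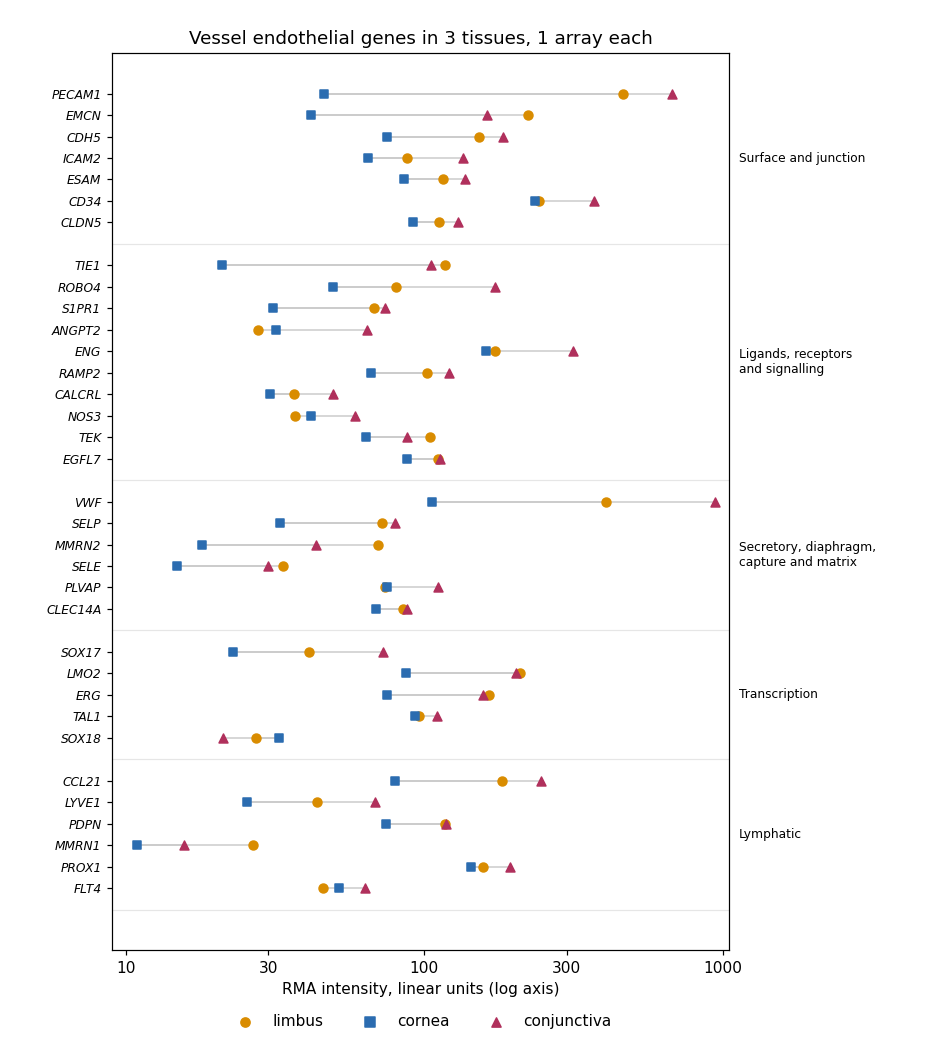
RMA intensity (linear units on a log axis) of the 34 vessel genes with circles for the limbus, squares for the cornea, and triangles for the conjunctiva, 1 array each, grouped by role. The square is leftmost in 29 of the 34 rows, and the triangle is rightmost in 25 (36.7% of all genes), or in 10 (9.79%) with scaling by the hybridization controls.

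The signal of many of these probe sets was low. Of the 34 genes, 21 reached an intensity of 100 in any tissue (11003 of all 19775 genes). The number was 4 in cornea (9514 of all genes), 17 in limbus (9801), and 20 in conjunctiva (9904). The number under the median of the array was 14 of 34 in cornea (6296 of all genes), 9 in limbus (6145), and 5 in conjunctiva (6118). With 32 added to every value, which damps the ratios of low values, the conjunctiva was at least 2-fold above the cornea for 7 of the 34 (3.84% of all genes under the same rule) and the limbus for 6 (2.43%).

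All 7 genes of surface and junction proteins were lowest in the cornea. PECAM1, the adhesion molecule of endothelial borders (probe set 208982_at), had an intensity of 45.9 in cornea, 462 in limbus, and 675 in conjunctiva. The limbus was 10.1-fold and the conjunctiva 14.7-fold above the cornea, where the value lay under the median of the array. Endomucin (EMCN), a sialomucin of capillary and venous endothelium, had values of 41.6, 223, and 162 in the same order. It was the only gene of this group that was highest in the limbus, at 5.36-fold above the cornea. VE-cadherin (CDH5), the adherens junction cadherin of endothelium, was at 75.2 in cornea, 152 in limbus, and 184 in conjunctiva, with ratios to the cornea of 2.03 in the limbus and 2.44 in the conjunctiva. With quantile normalization of the arrays the limbal difference of CDH5, 0.97 on the log2 scale, was just under 2-fold.

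The other surface genes differed less. ICAM2, a leukocyte integrin ligand, was at 64.6 in cornea, 87.6 in limbus, and 134 in conjunctiva, and passed 2-fold only in the conjunctiva. Its second probe set did not pass 2-fold and was lowest in the limbus, with 51.3 in cornea, 47.6 in limbus, and 55.6 in conjunctiva. The tight junction protein CLDN5 was at 91.9, 112, and 129, and the junctional immunoglobulin-like protein ESAM at 85.2, 115, and 136. Both were in the order cornea, limbus, conjunctiva but stayed within 1.60-fold. CD34, a sialomucin shared by endothelial, hematopoietic, and stromal cells, was at 234 in cornea, 243 in limbus, and 371 in conjunctiva. Its limbal and corneal values were nearly equal, at a ratio of 1.04, so CD34 did not show the gap between the limbus and the cornea seen for PECAM1.

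Among ligands, receptors, and signaling proteins, 8 of 10 genes were lowest in the cornea, and 4 passed 2-fold in the conjunctiva and 2 in the limbus. TIE1, an orphan receptor tyrosine kinase that works together with the angiopoietin receptor TEK, had an intensity of 21.0 in cornea, 117 in limbus, and 105 in conjunctiva. The limbus was 5.59-fold and the conjunctiva 5.01-fold above the cornea. TEK itself was at 63.7, 104, and 87.7, in the same order, with the limbus 1.64-fold above the cornea. On these probe sets both receptors were highest in the limbus, with 1.12-fold and 1.19-fold over the conjunctiva. The second TEK probe set was highest in the conjunctiva instead, with 58.6 in cornea, 63.5 in limbus, and 78.5 in conjunctiva. ANGPT2, the angiopoietin released by activated endothelium, was at 31.8 in cornea, 27.6 in limbus, and 64.4 in conjunctiva. On this probe set the limbus did not exceed the cornea. On another of similar brightness it did, with 26, 39.4, and 38.2, so the order of these tissues for ANGPT2 is not settled. With quantile normalization the log2 difference between the conjunctiva and the cornea was 0.98, just under 2-fold.

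S1PR1, the receptor through which sphingosine 1-phosphate tightens endothelial junctions, was at 31.1 in cornea, 67.6 in limbus, and 73.9 in conjunctiva. Limbus and conjunctiva were nearly level, and both were over 2-fold above the cornea. ROBO4, an endothelial roundabout receptor, was at 49.4, 80.6, and 173, and endoglin (ENG), a TGF-beta coreceptor, at 161, 172, and 316. For these receptors the conjunctiva stood alone, 2.15-fold and 1.83-fold above the limbus, and ENG missed 2-fold over the cornea at 1.96-fold. RAMP2 and CALCRL, which together form a receptor of adrenomedullin, were at 66.1 and 30.4 in the cornea, 102 and 36.6 in the limbus, and 121 and 49.4 in the conjunctiva. Both were in the order cornea, limbus, conjunctiva, within 1.83-fold. The second CALCRL probe set was highest in the limbus, with 17.4 in cornea, 25.3 in limbus, and 18.7 in conjunctiva. The third, with 11.3, 13.9, and 18.5, kept the order of the first. The secreted EGFL7 was at 87.5, 111, and 113, and the endothelial nitric oxide synthase NOS3 at 41.8 in cornea, 36.7 in limbus, and 58.4 in conjunctiva. NOS3 was one of the 4 genes lowest in the limbus, together with FLT4, ANGPT2, and PLVAP.

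The next group comprised proteins of secretion, leukocyte capture, the fenestral diaphragm, and the vessel matrix. Von Willebrand factor (VWF, probe set 202112_at), the adhesive glycoprotein stored in endothelial granules, had an intensity of 106 in cornea, 407 in limbus, and 940 in conjunctiva. The conjunctiva was 8.86-fold and the limbus 3.84-fold above the cornea, and the conjunctiva was also 2.31-fold above the limbus. P-selectin (SELP), stored in the same granules, was at 32.7, 72.3, and 79.8, in the same order of tissues, and E-selectin (SELE), which is induced by inflammation, at 14.9, 33.7, and 29.9. Both selectins were over 2-fold lower in the cornea, at values under 100 throughout, but for SELE the log2 difference of the conjunctiva was 0.97 with quantile normalization, just under 2-fold. MMRN2, an endothelial matrix protein that binds the lectin CLEC14A, was at 18.0 in cornea, 69.8 in limbus, and 43.4 in conjunctiva, with the limbus 3.89-fold above the cornea. CLEC14A itself was at 68.9, 84.6, and 87.4, and the diaphragm protein PLVAP at 74.9, 74.0, and 111. The gap of MMRN2 rests on this probe set, since the other 2 gave a limbus to cornea ratio of 1.39 and 1.07, near the 1.23 of CLEC14A. For PLVAP the limbus and the cornea were nearly equal.

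Of the 5 transcription regulators, 4 were lowest in the cornea. ERG, an ETS factor of endothelial identity, was at 74.7 in cornea, 165 in limbus, and 157 in conjunctiva. LMO2, a bridging protein of hematopoietic and endothelial transcription complexes, was at 86.6, 209, and 203. In both genes the limbus and the conjunctiva were nearly level and each was over 2-fold above the cornea. The chosen ERG probe set is of a type that can bind other transcripts. TAL1, a helix-loop-helix partner of LMO2, was at 92.7, 95.6, and 110, and so did not share the gap of LMO2 on this probe set. SOX17, a factor of arterial endothelium, was at 22.9 in cornea, 41.2 in limbus, and 72.6 in conjunctiva. SOX18, of the same subfamily, was at 32.5, 27.3, and 21.2, and was the only one of the 34 genes that was highest in the cornea and lowest in the conjunctiva. Its values lay under the median in every tissue, it was highest in the limbus with scaling by the hybridization controls, and its single probe set is of the same type as that of ERG.

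Of the 6 lymphatic genes, 5 were lowest in the cornea. CCL21, the chemokine that guides dendritic cells and T cells into lymphatic vessels, had an intensity of 79.6 in cornea, 182 in limbus, and 245 in conjunctiva. It was the only lymphatic gene at least 2-fold above the cornea in both tissues, with 2.29-fold in the limbus and 3.08-fold in the conjunctiva. LYVE1 was at 25.4, 43.8, and 68.1, which put the conjunctiva 2.68-fold and the limbus 1.72-fold above the cornea. On the second LYVE1 probe set, at 12.3, 14.6, and 16.9, the conjunctiva was 1.37-fold above the cornea. MMRN1, a multimerin of lymphatic endothelium and platelets, was at 10.9 in cornea, 26.6 in limbus, and 15.7 in conjunctiva, each below the median intensity. It was 2-fold above the cornea in the limbus only.

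The other lymphatic genes stayed within 2-fold. PROX1 was at 143 in cornea, 157 in limbus, and 194 in conjunctiva, and each of its 4 probe sets was highest in the conjunctiva. FLT4 was at 51.7, 45.6, and 63.4, and PDPN, which basal epithelial and stromal cells also express, at 74.2, 117, and 118. On their chosen probe sets all of these had their highest value in the conjunctiva, but for FLT4 the limbus was below the cornea. For PDPN the conjunctiva and the limbus were nearly equal. With each array divided by its median, the PDPN log2 difference between them (conjunctiva minus limbus) was -0.04. The other PDPN probe sets were mixed. Probe set 221898_at was highest in the limbus (-0.53, log2 conjunctiva minus limbus). Probe set 204879_at was highest in the cornea (-0.23, log2 conjunctiva minus cornea), and 208233_at in the conjunctiva. Over the 6 lymphatic genes the median log2 difference was 0.60 for the conjunctiva minus the cornea and 0.72 for the limbus minus the cornea. Over the 28 blood and general genes it was 1.01 and 0.67. The 2-fold rule was passed by 2 of 6 lymphatic and 15 of 28 blood and general genes in the conjunctiva, and by 2 of 6 and 11 of 28 in the limbus. The difference between these groups was not tested.

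**Figure D2:**
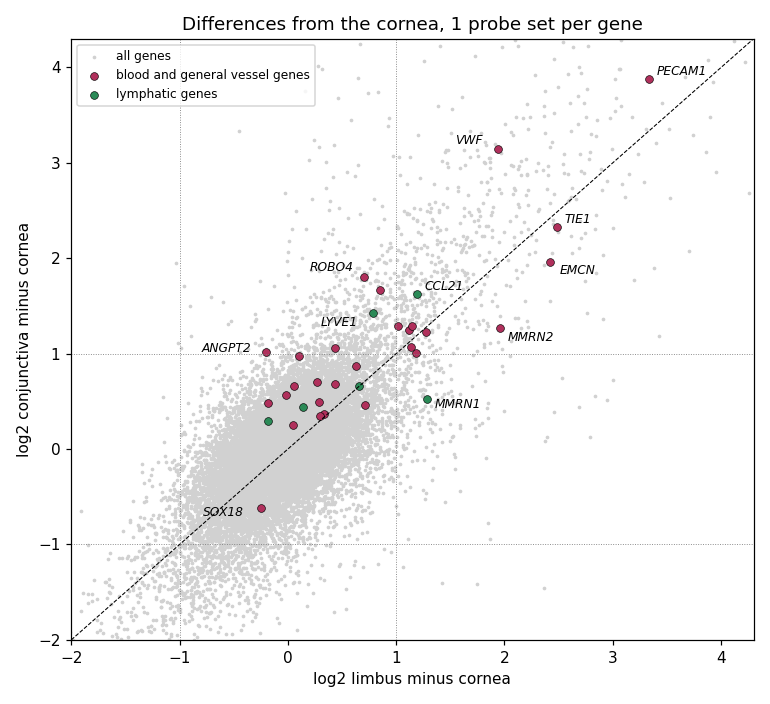
Log2 difference between the limbus and the cornea (horizontal) and between the conjunctiva and the cornea (vertical) for all genes (gray), blood and general vessel genes (red), and lymphatic genes (green); dotted lines mark 2-fold, the dashed line marks equal limbus and conjunctiva, and points beyond the axes are not drawn. Of the vessel genes, 25 lie above the dashed line (10 with scaling by the hybridization controls), 12 lie past 2-fold in both directions at the upper right, and PECAM1 lies farthest from the origin.

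Between the limbus and the conjunctiva the vessel genes were much closer. The median log2 difference between the conjunctiva and the limbus was 0.24, against 0.04 over all genes. The conjunctiva was at least 2-fold above the limbus for 3 of 34 genes, VWF, ROBO4, and ANGPT2, each on its chosen probe set only, compared with 2.31% of all genes, and these were also the 3 that passed 2-fold over both other tissues (1.68%). The limbus was 2-fold above the conjunctiva for 0 of 34 (2.62% of all genes) and above both tissues for 0 of 34 (0.475%). The highest value lay in the conjunctiva for 25 genes (36.7% of all genes), in the limbus for 8 (24.9%), and in the cornea for 1 (38.4%). The 8 genes highest in the limbus on their chosen probe sets were EMCN, TEK, TIE1, SELE, MMRN2, MMRN1, ERG, and LMO2. Among them MMRN1 had the largest ratio to the conjunctiva, 1.70, followed by MMRN2 with 1.61 and EMCN with 1.38.

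The order of these vascular tissues depended on the scaling of the arrays. When the mean of the hybridization controls was used to scale each array, the highest value lay in the limbus for 24 genes and in the conjunctiva for 10. The 10 were VWF, ROBO4, ANGPT2, ENG, SOX17, NOS3, LYVE1, ICAM2, CD34, and PLVAP, whereas PECAM1, CDH5, CCL21, and PROX1 were among the genes that became higher in the limbus. The conjunctiva was then 2-fold above the limbus for 0 of 34. This scaling moved the median of all genes by 0.80 between the limbus and the cornea, by 0.25 between the conjunctiva and the cornea, and by -0.56 between the conjunctiva and the limbus, on the log2 scale. The cornea was then lowest for 33 of 34 genes, but also for 69.5% of all genes. The limbus was highest for 85.8% of all genes and the conjunctiva for 9.79%.

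Where the conjunctiva was 2-fold above the cornea, the limbus lay nearer the conjunctiva. On a log2 scale with the cornea at 0 and the conjunctiva at 1, the median position of the limbus was 0.86 over the 17 vessel genes, compared with 0.60 over the 1123 genes of the array that met the same condition. The limbus lay past the halfway point for 14 of the 17 (82.4%, against 63.8% of the 1123). It exceeded the conjunctiva for 6 of the 17 (35.3%, against 11.5%), namely EMCN, TIE1, SELE, MMRN2, ERG, and LMO2. That count rests on the chosen probe sets. On every other probe set of EMCN, TIE1, MMRN2, and LMO2 the conjunctiva was level with or above the limbus. The other ERG probe sets were mixed, at 0.49, 0.05, and -0.01 (log2 conjunctiva minus limbus). LMO2 was higher in the conjunctiva with quantile normalization, by 0.03. Over all 34 genes, 8 were highest in the limbus, compared with 24.9% of all genes. The range of the positions was wide, from -0.20 for ANGPT2 to 1.54 for MMRN2. PECAM1 was at 0.86, SELP at 0.89, S1PR1 at 0.90, and CDH5 at 0.79, whereas VWF was at 0.62, ROBO4 at 0.39, and ICAM2 at 0.41. These positions use a single array per tissue, were not tested, and move higher with scaling by the hybridization controls.

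Other probe sets of the same genes served as an internal check. Of the 34 genes, 14 had 1 probe set and 20 had 2 to 5, which gave 37 further probe sets, 35 of them under 100 in every tissue. Of the 37, 21 were lowest in the cornea, 6 were at least 2-fold higher in the conjunctiva than in the cornea, and 0 were 2-fold lower. Their median log2 difference between the conjunctiva and the cornea was 0.29, in place of 0.99 on the chosen probe sets. Of the 17 genes that passed 2-fold in the conjunctiva, 12 had another probe set. In 4 of these, PECAM1, EMCN, ERG, and SOX17, another probe set passed as well, and in 9 of 12 all other probe sets were higher in the conjunctiva than in the cornea. With the median taken across all probe sets, the conjunctiva was 2-fold above the cornea for 9 of the 34 genes (3.69% of all genes under the same rule) and the limbus for 8 (2.42%).

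For EMCN all 3 probe sets were over 2-fold lower in the cornea than in either other tissue. The second (219436_s_at) was at 39.0 in cornea, 89.1 in limbus, and 180 in conjunctiva, and the third at 23.3, 49.2, and 53.3. They shared the gap to the cornea, but on both the conjunctiva was higher than the limbus, so the limbal maximum of EMCN rests on the brightest probe set. For PECAM1, probe set 208983_s_at repeated the gap with 23.8, 72.4, and 77.1, while the 3 others did not. Probe set 1559921_at was at 136 in cornea, 126 in limbus, and 148 in conjunctiva, 208981_at at 54.5, 55.2, and 69.3, and 1558397_at at 35.4, 34, and 30.2. The median over the 5 PECAM1 probe sets was 0.35 for the conjunctiva minus the cornea and 0.02 for the limbus minus the cornea (log2), in place of 3.88 and 3.33. The second ERG probe set (213541_s_at) was at 26.2, 52.0, and 73.0. For VWF the second probe set was at 37.6 in cornea, 36.7 in limbus, and 46.7 in conjunctiva, and for ROBO4 it was at 77.0, 64.3, and 61.1. The size of the VWF difference and the direction of the ROBO4 difference therefore rest on 1 probe set each. The same holds for the difference of ANGPT2 between the conjunctiva and the limbus, which was 1.22 on the log2 scale on the chosen probe set and 0.01 as the median of 4. The second probe sets of TIE1, with 10.3, 11.2, and 11.7, and of LMO2, with 28.7, 22.7, and 35.0, did not show the 2-fold gap either. A further TAL1 probe set (206283_s_at) passed 2-fold in the conjunctiva, with 30.1, 50.4, and 69.0, although the chosen one did not.

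**Figure D3:**
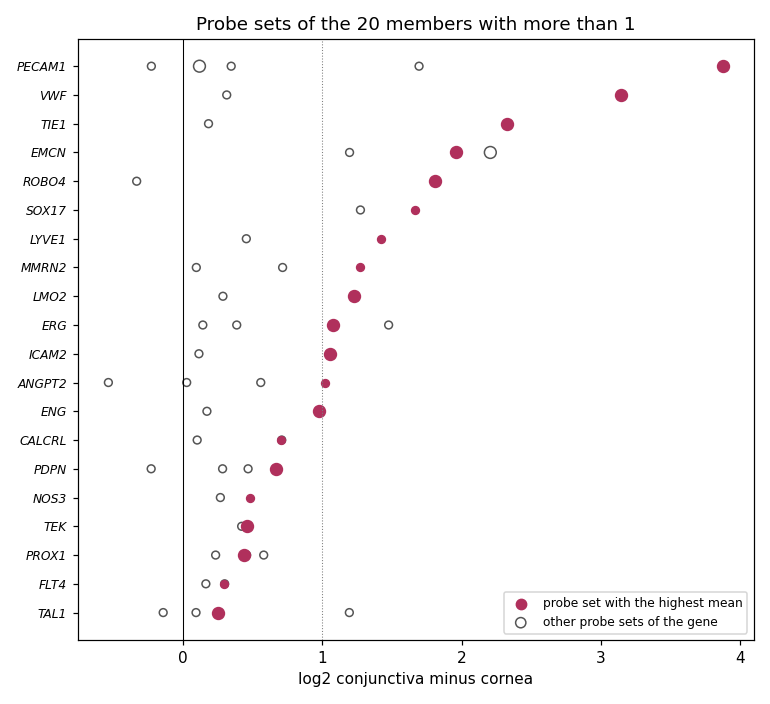
Log2 difference between the conjunctiva and the cornea for every probe set of the 20 vessel genes with more than 1; filled circles are the chosen probe sets, open circles the others, large symbols reach an intensity of 100 in a tissue, and the dotted line marks 2-fold. Most open circles lie between 0 and the filled circle of their gene, and 6 lie at 2-fold or more.

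Other genes of vessel biology gave a mixed picture. Of 42 further genes, 40 had a probe set with a single symbol. The conjunctiva was at least 2-fold above the cornea for 18 of the 40 (5.68% of all genes) and the limbus for 16 (4.06%). In the opposite directions there were 0 (5.31% and 2.51%), and 26 were lowest in the cornea (33.2%). The median log2 difference between the conjunctiva and the cornea was 0.45. The highest value lay in the cornea for 5 of the 40, compared with 38.4% of all genes. These were the water channel AQP1 (665 in cornea, 403 in limbus, and 359 in conjunctiva), the protein C receptor PROCR (68.7, 36.1, and 48.2), NRP2, EFNB2, and ARHGEF15. Growth factors and receptors were among those that passed 2-fold. VEGFA, the main vascular growth factor, was at 253 in cornea, 1180 in limbus, and 1667 in conjunctiva, and VEGFC, the lymphatic growth factor, at 32, 133, and 168. FLT1, a receptor of VEGFA, was at 85.4, 189, and 220, and the coreceptor NRP1 at 18.2, 127, and 180. KDR, the main signaling receptor of VEGFA, did not share this gap, with 88.7 in cornea, 126 in limbus, and 98.8 in conjunctiva.

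Among the 40, junction, coagulation, and surface genes that reached 100 and a 2-fold difference were JAM2, ADGRF5, CAV1, ECSCR, NOSTRIN, TFPI, and THBD. JAM2, a junctional adhesion molecule, was at 40.5 in cornea, 132 in limbus, and 177 in conjunctiva. The adhesion G protein-coupled receptor ADGRF5 was at 26.8, 140, and 362, and the caveolar protein CAV1 at 163, 505, and 889. Their conjunctiva to cornea ratios were 4.37, 13.5, and 5.44. The surface protein ECSCR (3.31), the nitric oxide synthase trafficker NOSTRIN (2.97), and the coagulation regulators TFPI (3.70) and THBD (2.42) had smaller ratios in the same direction. The factors with values of at least 100 and a 2-fold difference were HEY2, HEY1, FOXC2, KLF2, and FLI1. HEY2, a Notch target, was at 40.0 in cornea, 122 in limbus, and 518 in conjunctiva, and HEY1 at 102, 535, and 675. FOXC2, a factor of lymphatic valves, was at 24.4, 31.9, and 149, and was thus 2-fold above the cornea in the conjunctiva alone. KLF2, a factor induced by flow, was at 141, 440, and 590, and the ETS factor FLI1 at 52.1, 148, and 160. Several of these genes, such as VEGFA, HEY1, KLF2, and CAV1, are also expressed outside the endothelium.

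Genes of other cells that accompany vessels also differed between the tissues. Of 12 smooth muscle and pericyte genes, 6 passed 2-fold over the cornea in the conjunctiva (5.68% of all genes) and 3 in the limbus (4.06%). The median log2 difference was 1.15 and 0.27. Their summed level, which the brightest probe sets dominate, was 951 in cornea, 2016 in limbus, and 4848 in conjunctiva. The pericyte gene RGS5 was at 30.9 in cornea, 470 in limbus, and 446 in conjunctiva, a ratio of 15.2 between the limbus and the cornea. The other pericyte genes of the list did not share it, as this ratio was 1.55 for PDGFRB, 1.35 for KCNJ8, 1.30 for ABCC9, 1.09 for NOTCH3, 0.93 for CSPG4, and 0.77 for MCAM. The contractile genes ACTA2 and MYH11 were at 76.4 and 142 in the cornea, 431 and 160 in the limbus, and 1847 and 701 in the conjunctiva. RGS5 was thus nearly level in the limbus and the conjunctiva, whereas ACTA2 was 4.29-fold and MYH11 4.39-fold higher in the conjunctiva than in the limbus.

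Blood cells carry several of the same transcripts as endothelium, among them VWF, SELP, PECAM1, CD34, TAL1, LMO2, and MMRN1. Of 10 leukocyte genes with a probe set, 10 were highest in the conjunctiva (36.7% of all genes), 4 of them at 2-fold over the cornea (5.68%). Their median log2 difference between the conjunctiva and the cornea was 0.95. Their summed level was 720 in cornea, 953 in limbus, and 1819 in conjunctiva. PTPRC (CD45), the pan-leukocyte phosphatase, was at 18.8, 81.9, and 352 in that order. Of 6 platelet genes, 0 differed 2-fold between any tissues. With 5.68% or fewer of all genes past 2-fold in each direction, 0 of 6 does not set this list apart. TUBB1 came nearest, with the conjunctiva 1.97-fold above the cornea. The summed level of the platelet genes was 420, 423, and 505. Of 4 erythroid genes with a probe set, only hemoglobin beta (HBB) was 2-fold higher in the conjunctiva than in the cornea (5.68% of all genes). It was at 150 in cornea, 132 in limbus, and 414 in conjunctiva. AHSP was also highest in the conjunctiva, at 29.0, 33.5, and 55.2. The other 2 were highest in the cornea, HBD at 62.7, 49.7, and 53.2 and ALAS2 at 61.4, 51.4, and 60.9. The summed level was 303, 267, and 583, and HBB made up most of it in the conjunctiva. RMA leaves no value at 0, so no defining marker of these lists was at 0. Without the 6 genes shared with platelets or blood progenitors, the median log2 difference of the blood and general list between the conjunctiva and the cornea was 0.99 in place of 1.01. Between the limbus and the cornea it was 0.53 in place of 0.67. The part of leukocytes and of smooth muscle in the vessel gene differences was not tested.

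**Figure D4:**
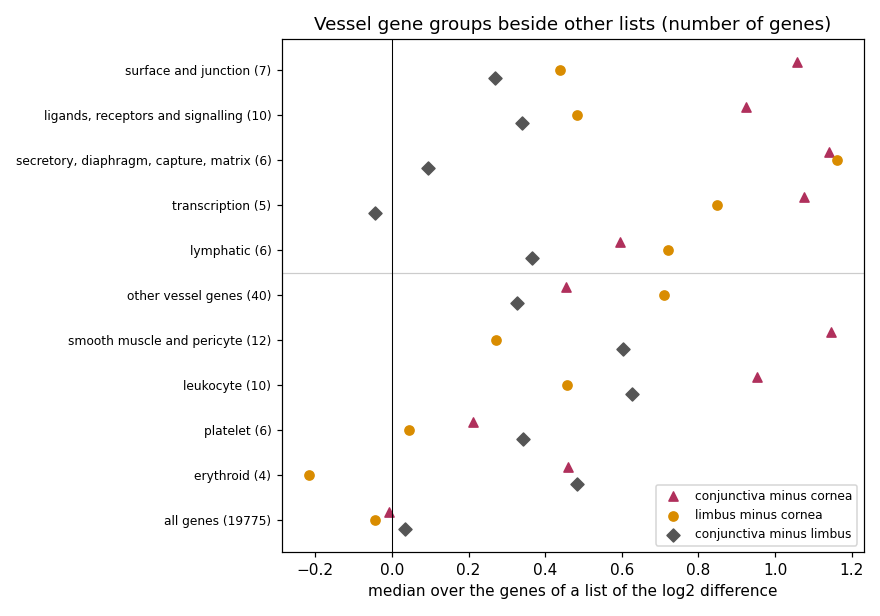
Median log2 difference over the genes of each list for the conjunctiva minus the cornea (triangles), the limbus minus the cornea (circles), and the conjunctiva minus the limbus (diamonds), with the number of genes in parentheses. The upper 5 lists are the vessel genes by role; their triangles lie between 0.60 and 1.14, against -0.01 for all genes.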

How the data were processed

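RNA of the 3 tissues was amplified in 2 rounds by the authors and hybridized to human U133 Plus arrays, 1 per tissue. The authors normalized each array by RMA (justRMA, version not given in the sources used here) with a fixed pool of reference arrays and not with the other arrays, so differences of scale can remain. The deposited file holds linear-scale intensities for 54675 probe sets, with 0 missing values and 0 columns of other samples. An annotation of the array gave exactly 1 symbol to 41097 probe sets, several to 1801, and none to 11777; only the first were used. The 34 members, the lists, and the comparisons were chosen with earlier results of these data known. All members are named, whatever their level, and so are the other vessel genes with an intensity of at least 100 and a 2-fold difference. Some listed genes outside this rule are also named. The lists of other cell types are given mainly by counts, with some of their genes named. The 2-fold threshold follows the study. Shares of all genes use the same rule on 1 probe set per gene. Ratios, log2 differences, and medians were computed with Python 3.11.15, numpy 2.4.6, and pandas 2.3.3, and drawn with matplotlib 3.10.9; the counting was tested on simulated data. The number of arrays limits the precision. Alternatives varied the scaling, the pseudocount, the level, the fold, the probe set, and the members of a list. No sequence or genome coordinate is reported.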

Additional observations from a re-analysis of the deposited data

How the results depend on the processing

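No paired analysis was possible because each tissue has 1 array. With quantile normalization and with division by the medians, 29 genes were lowest in the cornea. The number was 28 with the median of all probe sets (33.1% of all genes) and 33 with the hybridization controls (69.5%). Among the 21 genes that reached 100 it was 20 (3495 of the 11003 genes of the array at that level). A pseudocount cannot change which tissue is lowest, and this count does not depend on the fold. In all alternatives 0 genes had a corneal value above the limbus by the fold in use (2.51% of all genes as deposited at 2-fold). With a pseudocount of 32, the conjunctiva was 2-fold above the cornea for 7 genes (3.84% of all genes) and the limbus for 6 (2.43%). The conjunctiva was above the limbus for 1 (1.26%) and above both for 1, and the cornea was below both for 4. The median log2 difference of the blood and general genes between the conjunctiva and the cornea was 0.62. With the median of all probe sets per gene, the counts over the cornea were 9 (3.69%) and 8 (2.42%). The conjunctiva was above the limbus for 0 (1.3%) and above both for 0, and the cornea was below both for 7. The median of the blood and general genes was then 0.69, and 3 genes were highest in the limbus (24.9%). The restriction to the 21 genes that reached 100 let fewer genes enter. Only 4 of them reached this level in the cornea, so most passed through the other tissues. The conjunctiva was then 2-fold above the cornea for 10 (907 of the 11003 genes of the array at that level) and the limbus for 8 (657). The highest value lay in the conjunctiva for 16 (3712), in the limbus for 5 (2521), and in the cornea for 0 (4770). At 3-fold the counts were 7 and 5 over the cornea (2.86% and 1.74% of all genes) and 4 with the cornea below both. The conjunctiva was then over the limbus for 0 (0.566%) and over both for 0. At 1.5-fold the counts were 10 for the conjunctiva over the limbus (9.11% of all genes) and 8 over both. They were 2 for the limbus over the conjunctiva (8.38%), 2 over both, and 1 for the cornea over the conjunctiva. In these alternatives and in the scaling below, no share of all genes was computed for counts over or below both tissues. The same holds for the cornea over the conjunctiva, so these counts have no background beside them.

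Division by the hybridization controls gave 25 genes for the limbus over the cornea (27.9% of all genes). It gave 0 for the conjunctiva over the limbus (0.582%) and 0 over both, and 3 for the limbus over the conjunctiva (13.1%) and 3 over both. The highest value lay in the limbus for 24 (85.8% of all genes), in the conjunctiva for 10 (9.79%), and in the cornea for 0. The blood and general median became 1.47 for the limbus minus the cornea and -0.33 for the conjunctiva minus the limbus, and the lymphatic median 1.52 and -0.19. This follows from the shift of all genes that the scaling makes. Division by the medians gave 0.96, and leaving out the genes of platelets and blood progenitors 0.99, for the blood and general genes between the conjunctiva and the cornea, just under 2-fold in place of 1.01. Quantile normalization and the probe set with the highest maximum moved no count by over 1.5 times, although the first put CDH5 in the limbus and ANGPT2 and SELE in the conjunctiva just under 2-fold over the cornea. Most values lie under 100, where ratios are less certain.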
